A study of Homo sapiens with 8 samples.

Results

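Expression of 31 genes of cholesterol and fatty acid synthesis was followed in HCT-116 cells, a human colorectal cancer line, after CDK inhibition, after loss of CDK2 and in cells resistant to the inhibitor. The genes were chosen by name: every non-control probe of the array annotated with one of these gene names was taken, which gave 43 probes. Of these, 41 passed the filter on dim probes and were tested among 28677 probes, and all 31 genes were among the 15317 named genes tested. Each gene is given by its brightest tested probe, which was well above background on all 8 arrays for all 31 genes. HCT-116 cells of 4 kinds, grown in 10% FBS in DMEM, were hybridized to 2 arrays each. WT was the untreated parental line, and WT+NU6102 was the same line after 24 h in NU6102, a purine that inhibits CDK1 and CDK2, at 20 µM. CDK2-/- was an untreated HCT-116 line, bought with the parental line, in which the CDK2 gene is deleted. R50 was grown out of HCT-116 cells as colonies resistant to 50 µM NU6102 and was kept in that dose. R50 and WT+NU6102 thus differ in dose, in time under the drug and in selection. The sources used here do not say whether the CDK2-/- or the R50 cells profiled were 1 clone. The 2 arrays of a group are called biological replicates in the series' design.

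Cholesterol is built from acetyl-CoA by way of mevalonate, isoprenoid units, squalene and lanosterol, and the same acetyl-CoA feeds the synthesis of saturated and unsaturated fatty acids. Genes of both branches are classical targets of the sterol regulatory element binding proteins, the transcription factors encoded by SREBF1 and SREBF2. SCAP escorts these factors from the endoplasmic reticulum to the Golgi, where they are cleaved and released. INSIG1 and INSIG2 retain SCAP when sterols are plentiful, and INSIG1 is itself a target of the pathway. Proliferating epithelial cells in culture both make these lipids and take them up from serum.

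The arrays were alike in quality. Between 32376 and 36206 of the 58717 non-control spots of an array were well above background, no spot was saturated, and the 2 arrays of a group correlated with r between 0.9937 and 0.9958 across tested probes, which are not independent replicates. Of 10 markers of colorectal epithelium, 7 were well above background on all 8 arrays, KRT8, KRT18, KRT19, EPCAM and CDX2 among them, while VIL1 and CDH17 were on none. Of 7 fibroblast and stroma markers, COL1A1 and ACTA2 were detected on all arrays, and COL1A2, COL3A1, LUM and PDGFRB were well above background on none. The summed signal of the 7, relative to the array's 75th percentile, was 0.534 to 0.604 in WT, 0.369 to 0.427 in WT+NU6102, 0.973 to 1.03 in CDK2-/- and 0.840 to 0.918 in R50, and its part in the results below was not tested. Of 5 markers of hepatocytes, adipocytes and other lipid-rich cells, ALB, ADIPOQ, PLIN1 and FABP4 were well above background on no array, and APOA1 was on all 8, at normalised log2 signals of -3.68 to -3.09. The leukocyte markers PTPRC (-2.57 to -2.18) and CD14 (-3.31 to -2.85) were also well above background on all 8 arrays. So were the endothelial markers CDH5 (-2.46 to -2.07) and VWF (-3.31 to -2.71). By comparison, KRT8 read 5.95 to 6.91. Levels are given below as normalised log2 signal, the log2 signal minus the 75th percentile of its array, and differences as log2 fold change ± SE from 2 arrays a group. CDK2 itself had a level of -1.56 and -1.51 in CDK2-/- and of -0.76 on both WT arrays (log2 fold change -0.77 ± 0.04, limma, adjusted p = 0.000268). Where its probe lies relative to the deleted part was not examined here. WT and WT+NU6102 lay on the same slide, and CDK2-/- and R50 on the other, so for CDK2-/- or R50 against WT, and for R50 against WT+NU6102, the slide cannot be told apart from the group.

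The promoters of the genes show what the members share beyond their names. RefSeq promoters, spanning 250 bases before to 50 bases after the annotated start on GRCh38.p14, were matched for 27 of the 31 genes; SC5DL was matched under its current symbol SC5D, and FDFT1, SQLE, ACAT2 and FASN were not analysed here. Each of 4 motifs was searched on both strands. The CCAAT box bound by NF-Y (CCAAT) was present in 16 of the 27 promoters, or 59.3%, against 35.7% of 27305 promoters and 36.3% of the 11769 promoters of tested genes. The GC box bound by Sp1 (GGGCGG) was present in 25, or 92.6%, against 44.6% of all promoters and 66.5% of those of tested genes. An exact match to a sterol regulatory element (TCACNCCAC or TCANCCCAC) was found in SREBF2 alone among the 27, or 3.7%. It was found in 1.99% of all promoters and 1.96% of those of tested genes. An E-box (CACGTG) was present in 4 of the 27 (LSS, SC5DL, INSIG1 and SCAP), or 14.8%, against 7.43% and 9.78%. These matches are a description of exact letters in a short window, and no test was made of them. An element with a mismatch, or one outside the window, was not counted, so no match does not show that an element is absent. Upstream stretches of 5 promoters are shown, with every match in capitals. They were picked to set the gene that holds the sterol element beside the regulators that fell most with the drug and enzymes at the top of the pathway. The SREBF2 stretch is chr22:41832962-41833104 (+ strand), that of SREBF1 is chr17:17837002-17837087 (- strand), that of INSIG1 is chr7:155297635-155297838 (+ strand), that of HMGCS1 is chr5:43313498-43313635 (- strand) and that of MVK is chr12:109573574-109573762 (+ strand). The last GC box of SREBF2 runs on past the stretch shown.
SREBF2: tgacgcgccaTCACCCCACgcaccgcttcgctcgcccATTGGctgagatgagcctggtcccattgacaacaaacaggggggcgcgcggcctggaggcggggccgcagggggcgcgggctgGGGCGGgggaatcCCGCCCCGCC
SREBF1: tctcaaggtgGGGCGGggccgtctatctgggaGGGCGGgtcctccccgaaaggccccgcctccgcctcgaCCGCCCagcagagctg
INSIG1: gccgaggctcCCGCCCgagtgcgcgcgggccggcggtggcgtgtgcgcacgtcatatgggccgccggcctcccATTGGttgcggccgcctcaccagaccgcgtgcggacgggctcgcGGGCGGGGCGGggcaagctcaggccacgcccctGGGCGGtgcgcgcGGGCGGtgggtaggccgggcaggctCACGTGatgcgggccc
HMGCS1: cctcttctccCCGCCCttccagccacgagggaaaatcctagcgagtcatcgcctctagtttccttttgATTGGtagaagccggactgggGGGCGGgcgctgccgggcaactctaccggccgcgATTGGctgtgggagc
MVK: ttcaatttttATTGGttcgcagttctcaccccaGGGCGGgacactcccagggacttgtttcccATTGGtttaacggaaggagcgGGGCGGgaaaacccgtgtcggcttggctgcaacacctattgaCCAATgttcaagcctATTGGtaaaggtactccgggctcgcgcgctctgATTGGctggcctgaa

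SREBF2 carries a sterol element followed by a CCAAT box, here read on the other strand as attgg. MVK, which encodes mevalonate kinase, held 5 CCAAT boxes in its window, INSIG1 held 1 with an E-box and several GC boxes, and SREBF1 held GC boxes alone. The 16 members with a CCAAT box had a median log2 fold change of -0.61 in WT+NU6102 against WT, 0.15 in CDK2-/- and 0.08 in R50. The 11 without it had medians of -0.40, 0.40 and 0.10.

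Most of the pathway was lower after acute NU6102. Against WT, 22 of the 31 genes were lower in WT+NU6102, 2 were higher and 7 were not called (limma on all 8 arrays, Benjamini-Hochberg adjusted p below 0.05 over all tested probes). Across all genes tested, 24.1% were called lower and 29.1% higher. The median log2 fold change of the 31 genes was -0.53, against 0.04 over all genes. At a change of at least 1 on the log2 scale, INSIG1 and SREBF1 were called lower, 2 of 31 (6.45%), a share near the 5.51% of all genes. In bulk RNA, a change in the make-up of the cell population and a change in RNA per cell cannot be told apart.

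**Figure D1:**
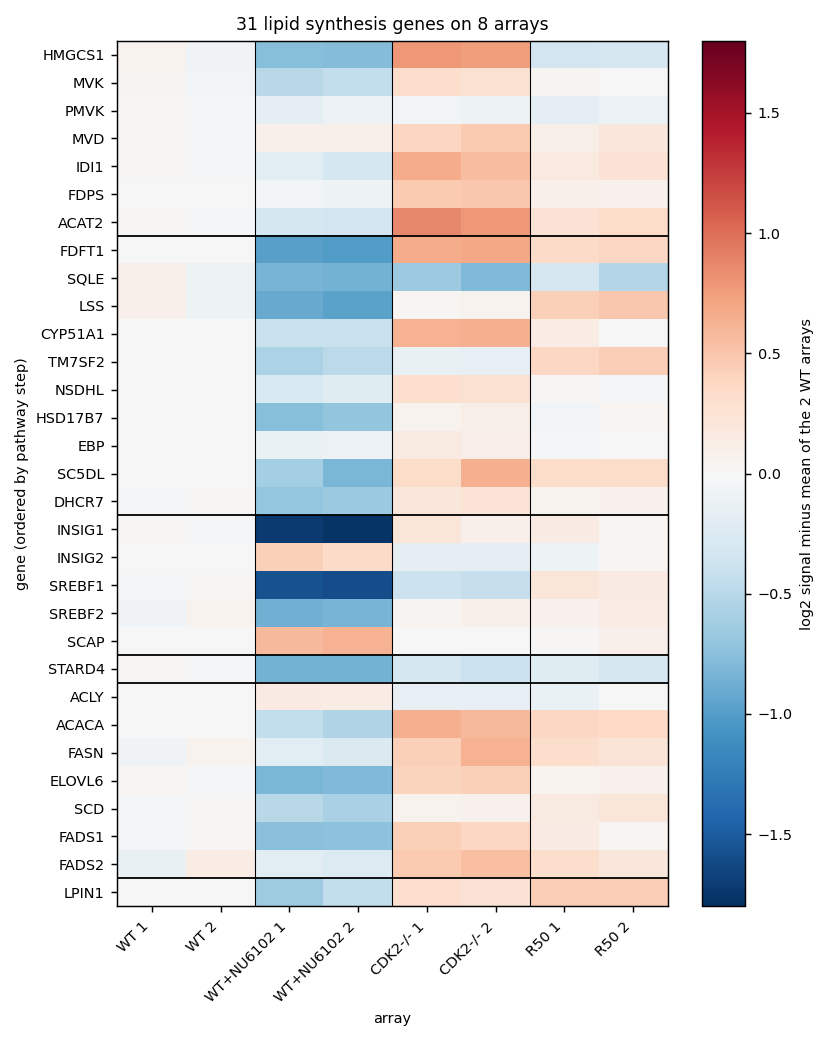
Heat map of normalised log2 signal minus the mean of the 2 WT arrays, with the 31 genes in rows, ordered by pathway step and separated by lines, and the 8 arrays in columns. In WT+NU6102, 22 genes were called lower, INSIG1 and SREBF1 by the most, while CDK2-/- arrays show 17 genes called higher.

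By the brightest probe of each gene, the regulators of the pathway held both the largest falls and the only called rises. INSIG1, the sterol-sensing anchor of the endoplasmic reticulum, had a normalised log2 signal of 2.56 and 2.51 in WT, 0.81 and 0.77 in WT+NU6102, 2.75 and 2.62 in CDK2-/-, and 2.67 and 2.57 in R50. Both treated arrays lay far below the other 6. The fall in WT+NU6102 was 3.35-fold (log2 fold change -1.74 ± 0.07, limma, adjusted p = 0.000108). SREBF1, which encodes the factor that drives mainly fatty acid genes, read 6.05 and 6.08 in WT, 4.49 and 4.47 in WT+NU6102, 5.68 and 5.65 in CDK2-/-, and 6.29 and 6.22 in R50. Here the treated arrays were lowest, CDK2-/- lay between them and WT, and R50 was highest, with no overlap between groups. Its fall with the drug was 3.0-fold (-1.58 ± 0.05, limma, adjusted p = 8.54e-05). SREBF2, which encodes the factor that drives mainly cholesterol genes, read 1.97 and 2.08 in WT and 1.16 and 1.19 in WT+NU6102, a change of -0.85 ± 0.06 (limma, adjusted p = 0.000299). SCAP, the escort of both factors, moved the other way, from 2.19 on both WT arrays to 2.78 and 2.81 in WT+NU6102 (0.60 ± 0.05, limma, adjusted p = 0.000448). INSIG2, the other anchor, rose from -0.77 and -0.80 to -0.35 and -0.44 (0.39 ± 0.06, limma, adjusted p = 0.00495). The other tested probes of SREBF1 (-0.02) and INSIG2 (-0.08) were not called with the drug.

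Among the enzymes that turn acetyl-CoA into isoprenoid units, 4 of 7 were lower in WT+NU6102 and none was called higher. HMGCS1, the cytosolic HMG-CoA synthase, read 0.70 and 0.59 in WT and -0.13 and -0.14 in WT+NU6102 (-0.78 ± 0.06, limma, adjusted p = 0.000353). MVK changed by -0.47, the thiolase ACAT2 by -0.33 and the isopentenyl diphosphate isomerase IDI1 by -0.25. The kinase PMVK (-0.14), the decarboxylase MVD (0.09) and the farnesyl diphosphate synthase FDPS (-0.07) were not called.

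Of the squalene and sterol ring genes, 9 of 10 were lower, with EBP (-0.11), the sterol isomerase, not called. FDFT1, the squalene synthase that commits the pathway to sterols, read 3.64 and 3.61 in WT against 2.65 and 2.63 in WT+NU6102. The gap between the groups was many times that between their arrays, and amounted to 1.98-fold (-0.99 ± 0.04, limma, adjusted p = 0.000141). LSS, which closes the rings to form lanosterol, went from 2.05 and 1.87 to 1.06 and 1.0 (-0.93 ± 0.07, limma, adjusted p = 0.000434). SQLE, the squalene epoxidase, went from 3.52 and 3.34 to 2.59 on both treated arrays (-0.84 ± 0.10, limma, adjusted p = 0.0018). The later enzymes changed by -0.74 (HSD17B7), -0.72 (SC5DL), -0.69 (DHCR7), -0.53 (TM7SF2), -0.40 (CYP51A1) and -0.25 (NSDHL). STARD4, a carrier of cholesterol between membranes, fell from 0.37 and 0.31 to -0.51 on both arrays (-0.85 ± 0.05, limma, adjusted p = 0.000269).

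Of the 7 fatty acid synthesis genes, 4 were lower and 3 were not called. ELOVL6, which lengthens palmitate, changed by -0.81 ± 0.05 (limma, adjusted p = 0.000235), from 1.18 and 1.1 in WT to 0.31 and 0.34. The desaturase FADS1 changed by -0.75, the stearoyl-CoA desaturase SCD by -0.54 and the acetyl-CoA carboxylase ACACA by -0.49. ACLY (0.14), which makes cytosolic acetyl-CoA from citrate, the fatty acid synthase FASN (-0.23) and the desaturase FADS2 (-0.23) were not called. LPIN1, a phosphatidate phosphatase of glycerolipid assembly, fell by 0.54 on the log2 scale. Within slide 2 alone, which held only WT and WT+NU6102, 21 genes were lower and 2 higher. The share of all genes called in that fit was not computed. The call of IDI1 was lost at least once when single arrays were left out.

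**Figure D2:**
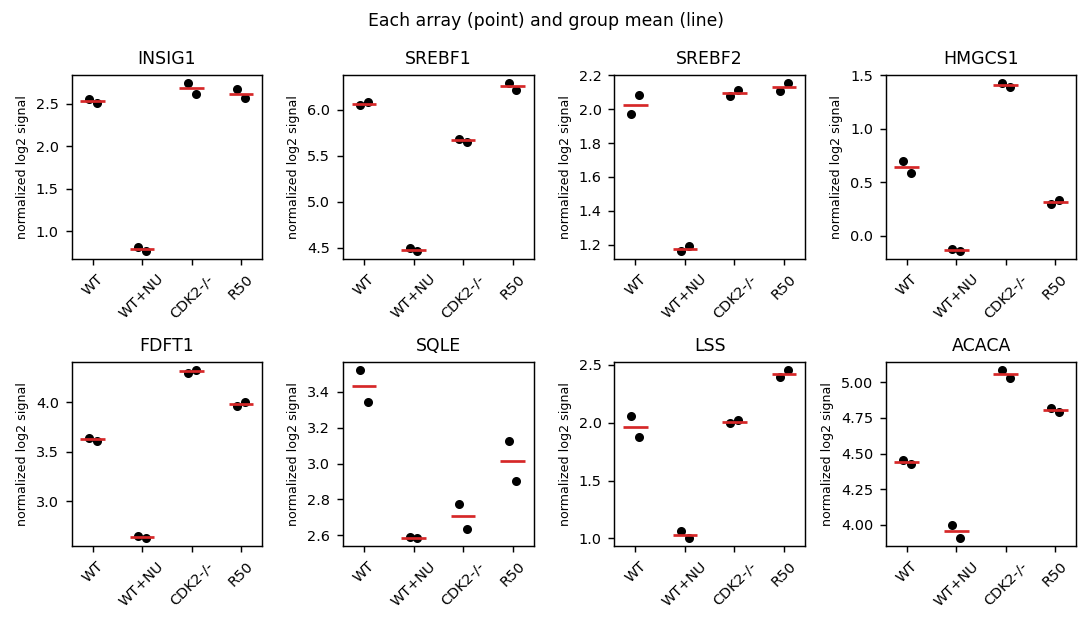
Normalised log2 signal of 8 of the 31 genes in the 4 groups, each point an array and each line the mean of 2 arrays; each panel has its own vertical axis, which does not start at 0. WT+NU6102 is lowest in every panel, whereas CDK2-/- is above WT for HMGCS1, FDFT1 and ACACA and below it for SREBF1 and SQLE.

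Loss of CDK2 was accompanied by smaller and mostly upward differences. Against WT, 17 of 31 genes were higher in CDK2-/-, 3 were lower and 11 were not called, where 19.6% of all genes tested were called higher and 16.5% lower. The median log2 fold change was 0.29, against 0.02 over all genes. None of the 31 rose by at least 1 on the log2 scale, a rise called for 2.79% of all genes. Of the mevalonate and isoprenoid genes, 6 of 7 were higher. ACAT2 had the largest rise, from 2.81 and 2.77 in WT to 3.65 and 3.56 in CDK2-/- (1.76-fold; 0.82 ± 0.05, limma, adjusted p = 0.000414). HMGCS1 read 1.43 and 1.39 in CDK2-/-, above all 6 other arrays (1.70-fold over WT; 0.77 ± 0.06, limma, adjusted p = 0.00057). IDI1 (0.61), FDPS (0.48), MVD (0.43) and MVK (0.30) were also higher, so that FDPS and MVD, not called with the drug, were called here.

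The squalene and sterol ring genes were divided. FDFT1 read 4.30 and 4.33 in CDK2-/- (1.61-fold over WT; 0.69 ± 0.04, limma, adjusted p = 0.000396), and CYP51A1 (0.63), SC5DL (0.49), NSDHL (0.29) and DHCR7 (0.23) were higher as well. SQLE, which lies between FDFT1 and LSS in the pathway, went the other way. It read 2.78 and 2.63 in CDK2-/-, below both WT arrays and slightly above both treated arrays, and was 1.65-fold lower than in WT (-0.72 ± 0.10, limma, adjusted p = 0.0053). LSS (0.04), TM7SF2 (-0.14), HSD17B7 (0.08) and EBP (0.14) were not called. The other lower genes were SREBF1 (-0.40 ± 0.05, limma, adjusted p = 0.00313) and STARD4 (-0.35 ± 0.05, limma, adjusted p = 0.00646). None of the 5 regulators was called higher: INSIG1 (0.15), INSIG2 (-0.17), SREBF2 (0.07) and SCAP (0.00) were not called.

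In fatty acid synthesis 5 of 7 genes were higher in CDK2-/-. ACACA, which makes malonyl-CoA, read 4.45 and 4.43 in WT and 5.08 and 5.03 in CDK2-/- (0.61 ± 0.05, limma, adjusted p = 0.000994). FASN read 6.99 and 7.12 in WT and 7.49 and 7.67 in CDK2-/- (0.53 ± 0.08, limma, adjusted p = 0.00766). FADS2 (0.51), ELOVL6 (0.41) and FADS1 (0.40) were also higher, and so was LPIN1 (0.29). ACLY (-0.14) and SCD (0.07) were not called. When single arrays were left out, the calls of DHCR7, FADS2, LPIN1, MVK and SC5DL were lost at least once, those of LPIN1 and SC5DL in most fits.

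**Figure D3:**
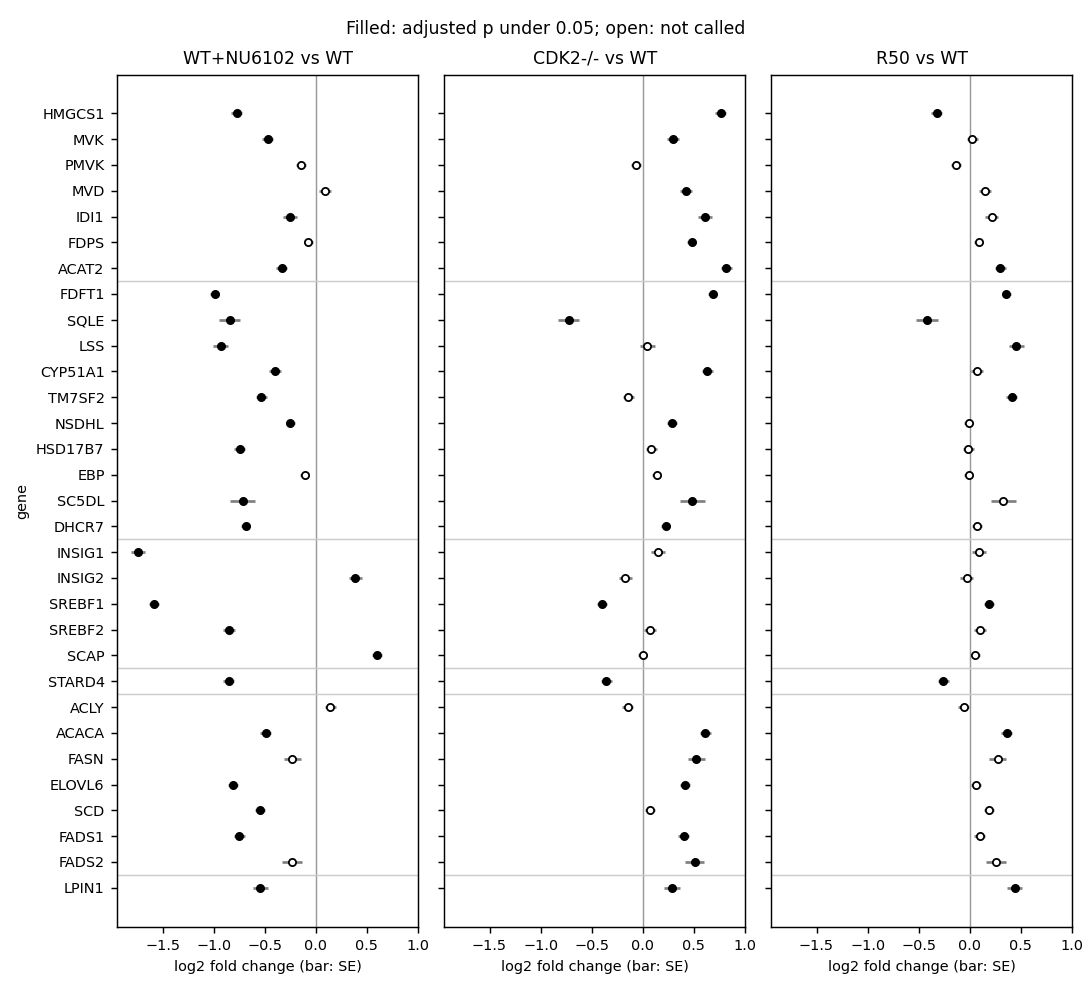
Log2 fold change against WT of the 31 genes, ordered by pathway step, with standard errors as horizontal bars; filled points have an adjusted p under 0.05 and open points do not. Most points lie left of 0 in WT+NU6102 and right of 0 in CDK2-/-. In R50, 22 lie right of 0 and 9 left of it, and 21 genes were not called.

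In R50 cells, which were kept in NU6102, most of these genes were not called against WT. Of the 31 genes, 7 were higher (22.6%), 3 were lower (9.68%) and 21 were not called. Among all genes tested, 12.2% were called higher and 15.6% lower, so most genes overall were likewise not called. A gene not called is not thereby shown to equal WT. The median log2 fold change was 0.09, against -0.04 over all genes. LSS was highest, at 2.39 and 2.45 against 2.05 and 1.87 in WT (1.37-fold; 0.46 ± 0.07, limma, adjusted p = 0.0116). LPIN1 (0.44), TM7SF2 (0.41), ACACA (0.36), FDFT1 (0.36), ACAT2 (0.30) and SREBF1 (0.19) were the other higher genes. SQLE read 3.13 and 2.90 (-0.42 ± 0.10, limma, adjusted p = 0.041), HMGCS1 read 0.30 and 0.34 (-0.32 ± 0.06, limma, adjusted p = 0.0147) and STARD4 read 0.12 and 0.04 (-0.26 ± 0.05, limma, adjusted p = 0.0256). All 3 lay below both WT arrays and above both treated arrays. These calls were fragile: when each array was left out in turn, FDFT1 and TM7SF2 alone kept theirs, and without WT replicate 2 or without R50 replicate 2 the number of higher genes was 3.

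Set against acutely treated cells, R50 had higher levels of most of these genes. Of the 31 genes, 25 were higher, 3 lower (SCAP, ACLY and, by its brightest probe, INSIG2) and 3 not called (PMVK, MVD and EBP). Of all genes tested, 26.1% were higher and 34.1% lower. The median log2 fold change was 0.59, against -0.07 over all genes. A rise of at least 1 on the log2 scale was called for 5 genes, beside 8.42% of all genes. These were INSIG1 (3.56-fold; 1.83 ± 0.07, limma, adjusted p = 3.24e-05), SREBF1 (3.42-fold; 1.77 ± 0.05, limma, adjusted p = 1.78e-05), LSS (2.62-fold), FDFT1 (2.54-fold) and SC5DL (1.05 on the log2 scale). The dose differs as well, 50 µM in R50 and 20 µM in WT+NU6102, so resistance and exposure cannot be told apart here. The calls of ACLY, FDPS and SQLE were lost at least once when single arrays were left out, that of FDPS in most fits.

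R50 and CDK2-/- cells, hybridized on the same slide, differed in 16 of these genes. Of the 31 genes, 13 were lower in R50, 3 were higher and 15 were not called, with 24.3% of all genes lower and 16.9% higher. The median was -0.15, against -0.07 over all genes. Of the 7 mevalonate and isoprenoid genes 6 were lower in R50, and HMGCS1 fell by at least 1 on the log2 scale (2.13-fold lower; -1.09 ± 0.06, limma, adjusted p = 0.000175), as 2.53% of all genes did. CYP51A1 (-0.56), ACAT2 (-0.52), IDI1 (-0.40) and FDPS (-0.39) were the next lowest. The higher genes were SREBF1 (0.59 ± 0.05, limma, adjusted p = 0.000763), TM7SF2 (0.55 ± 0.05, limma, adjusted p = 0.00128) and LSS (0.41 ± 0.07, limma, adjusted p = 0.00904). Fitted on this slide alone, 9 genes were lower and 3 higher, and the share of all genes called in that fit was not computed. The calls of ACACA, FADS1, LSS, MVD and MVK were lost at least once when single arrays were left out, and that of EBP was lost every time.

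Set side by side, the 3 comparisons with WT, which share the WT arrays, gave few genes the same call throughout. Each gene is again given by its brightest probe, and other probes of a gene did not always share its calls. SQLE and STARD4 were lower in all 3, though their calls in R50 were lost in most fits that left out a single array. ACLY, EBP and PMVK were called in none. ACACA, ACAT2, FDFT1 and LPIN1 were lower with acute drug and higher in both CDK2-/- and R50. The dimmer probes of ACACA and LPIN1 did not follow this pattern throughout. HMGCS1 was lower with the drug and in R50 but higher in CDK2-/-. CYP51A1, DHCR7, ELOVL6, FADS1, IDI1, MVK, NSDHL and SC5DL were lower with the drug, higher in CDK2-/- and not called in R50. SREBF1 was lower with the drug and in CDK2-/- and higher in R50, and LSS and TM7SF2 were lower with the drug and higher in R50. The R50 call of SREBF1 was lost in every fit that left out a single array. As given above, only FDFT1 and TM7SF2 kept their R50 calls in all these fits. The other tested probe of SREBF1 was called in no comparison, and the dimmer LSS probe was not called with the drug. HSD17B7, INSIG1, SCD and SREBF2 were called with the drug alone, as lower, and INSIG2 and SCAP with the drug alone, as higher. FADS2, FASN, FDPS and MVD were called in CDK2-/- alone. A call in one comparison and none in another does not show that they differ. In a test for any difference among the 4 groups (limma moderated F-test, adjusted p below 0.001), 21 of the 31 genes were called, beside 27.6% of all genes tested. This count fell to between 2 and 8 when single arrays were left out, to 4 with no filter on dim probes and to 11 with the replicate number as a block. The share of all genes called in those fits was not computed, so the falls cannot be read as particular to the 31 genes. In the fit to all 8 arrays, FDFT1, SREBF1 and INSIG1 had the smallest F-test p-values, and PMVK (adjusted p = 0.131) the largest.

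Several genes had more than 1 tested probe, and these did not always move together. Positions are those of the array annotation, on hg19. The brightest SREBF1 probe (chr17:17715419-17715478) carried the changes given above, whereas the other probe (chr17:17715304-17715363) read 1.96 and 2.12 in WT and 1.97 and 2.07 in WT+NU6102 (-0.02 ± 0.10, limma, adjusted p = 0.897). This other probe was called in none of the comparisons. The dimmer LSS probe (chr21:47608567-47608626) was not called with the drug (0.01) but was higher in CDK2-/- (0.45) and in R50 (0.95 ± 0.08, limma, adjusted p = 0.00187), where the brightest probe rose by 0.46. For INSIG2 the dimmer probe was at -0.08 with the drug, not called, and was called higher in CDK2-/- (0.27). In R50 against WT+NU6102 the INSIG2 probes were called in opposite directions, the brightest lower (-0.41) and the dimmer higher (0.28, limma, adjusted p = 0.0165). The dimmer ACACA probe was at -0.05 with the drug, not called, and rose by 0.25 in CDK2-/-. In R50 against WT it was not called (0.25, limma, adjusted p = 0.06). The dimmer FADS2 probe was called in no comparison. Of the 2 dimmer LPIN1 probes, 1 fell with the drug (-0.70) and 1 was not called (0.08). In CDK2-/- the probe that fell with the drug was not called (-0.20), and the other was higher (0.32). Neither was called in R50 against WT (-0.10 and 0.05). With the drug, the 3 tested HSD17B7 probes gave -0.74, -0.79 and -0.92, and both ELOVL6 probes fell, by 0.81 and 1.23. In R50 against WT the ELOVL6 probes differed. The dimmer was called higher (0.61 ± 0.10, limma, adjusted p = 0.0123) and the brightest was not called (0.07). The 2 HSD17B7 probes that were not tested were not well above background in both arrays of any group.

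**Figure D4:**
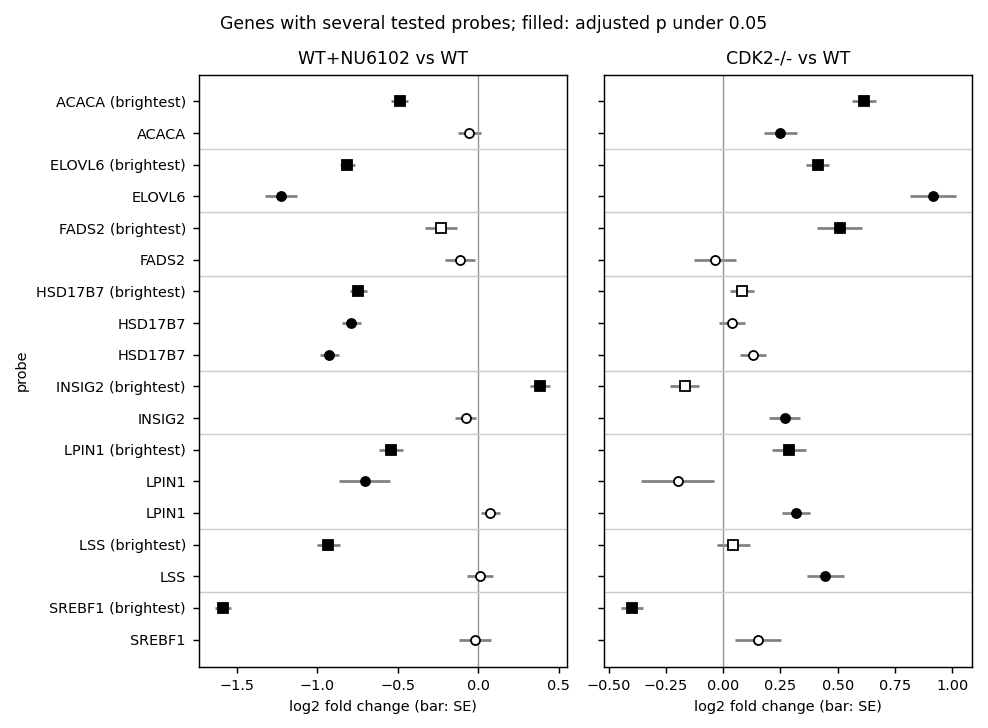
Log2 fold change of each tested probe of the 8 genes with several, in WT+NU6102 and in CDK2-/- against WT, with standard errors as bars; squares mark the brightest probe of a gene and filled symbols an adjusted p under 0.05. The probes of HSD17B7 and of ELOVL6 fall together with the drug, and those of SREBF1, LSS, INSIG2 and ACACA do not.

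Related lipid genes moved in both directions with the drug. Of 19 tested further genes of the sterol and isoprenoid pathway, 6 were lower (31.6%) and 8 higher (42.1%) in WT+NU6102, beside 24.1% and 29.1% of all genes tested, with a median of 0.12. Among them the sterol oxidase MSMO1, which was 1.14 higher in R50 than in WT+NU6102, fell with the drug (-0.90). In CDK2-/- 6 of the 19 were higher and 2 lower, beside 19.6% and 16.5% of all genes, and in R50 3 were higher and 2 lower, beside 12.2% and 15.6%. Of 16 genes of sterol export, storage and transport, 8 were lower (50.0%) and 4 higher (25%) with the drug, the latter near the 29.1% of all genes. The cholesteryl ester hydrolase NCEH1 rose by 1.33 on the log2 scale, and CYP27A1, the mitochondrial sterol hydroxylase, fell by 1.17 with the drug and by 2.00 in CDK2-/-. In R50 the oxysterol-binding protein gene OSBPL5 was 1.5 above WT+NU6102.

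Of 27 genes of fatty acid supply, activation and lipid assembly, 13 were lower (48.1%) and 8 higher (29.6%) with the drug, where 24.1% and 29.1% of all genes were. In CDK2-/- 10 were higher (37.0%) and 5 lower (18.5%), where 19.6% and 16.5% of all genes were. AGPAT4, an acyltransferase (-2.23 ± 0.19), DGAT2, which completes triglyceride (-1.73 ± 0.18), and ACACB, the mitochondrial acetyl-CoA carboxylase (-1.28 ± 0.08), were the lowest with the drug. In WT+NU6102, AGPAT4 read -4.35 and -3.79 and DGAT2 read -4.86 and -4.34. The lowest signals well above background on those arrays were -4.99 and -4.93, so the sizes of these falls are less sure. ACSL5, an acyl-CoA synthetase, separated the resistant line from the knockout: it read 5.18 and 5.37 in WT, 4.76 and 4.67 in WT+NU6102, 6.85 and 6.89 in CDK2-/-, and 3.79 and 3.66 in R50. No groups overlapped, and R50 lay 3.15 below CDK2-/- on the log2 scale (limma, adjusted p = 3.17e-05) and 1.55 below WT. AGPAT4 (1.15) and AGPAT5 (1.14) were higher in CDK2-/- than in WT. In R50, DGAT2 (1.26) and ELOVL3 (1.07) were higher than in CDK2-/-, and MLXIPL, a glucose-responsive transcription factor gene, was 1.79 above WT+NU6102.

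**Figure D5:**
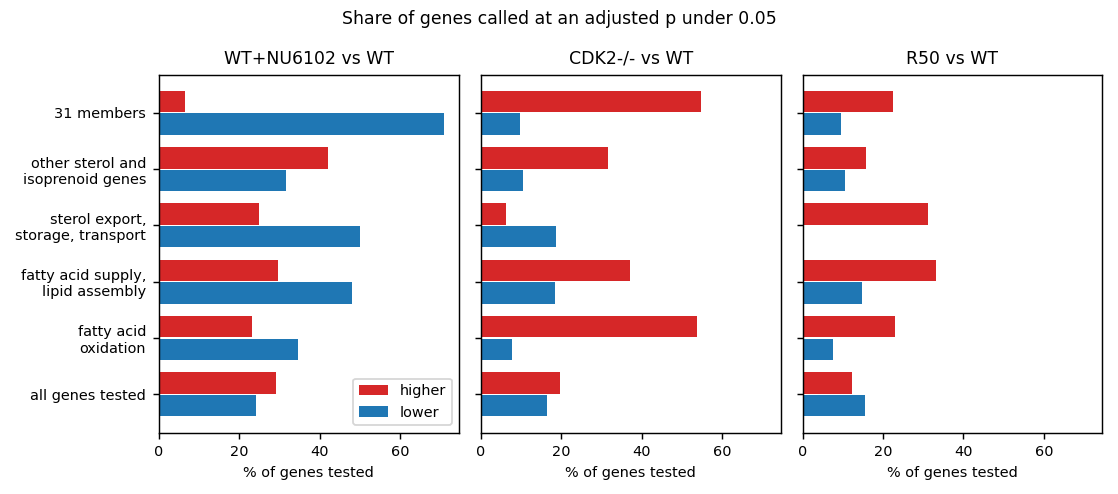
Percentage of tested genes called higher and lower at an adjusted p under 0.05, in the 3 comparisons with WT, for the 31 genes, 4 lists of related lipid genes and all genes tested; bars start at 0. For the 31 genes, 71.0% were lower in WT+NU6102 and 54.8% higher in CDK2-/-, against 24.1% and 19.6% of all genes.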

How the data were processed

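RNA of 8 HCT-116 samples was labelled with Cy3 and hybridized to Agilent SurePrint G3 Human GE 8x60k arrays. The authors extracted the deposited spot intensity values with Agilent Feature Extraction 11.5.1.1 per the file headers, background-subtracted and not normalized between arrays. They also deposited a table of log2 values from GeneSpring GX. Of 28702 probes compared, 28613 were within 0.05 of values recomputed from the intensities, up to a constant per array and per probe. Its scale is log2 and each probe was centred on its own median; the constant per array stays unknown, and the array medians ran from -0.02 to 0.02.

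Processed signals were taken to log2 and the array's 75th percentile was subtracted. Control and outlier spots were left out, and spots of a probe were averaged. Probes that stood well above background in every array of any group, 28677 in all, were tested with limma 3.58.1 (R 4.3.3), as contrasts of 4 groups in a single fit over 8 arrays with Benjamini-Hochberg adjustment. Each gene was represented by its probe with the highest mean over all arrays. Gene names were counted where they matched a RefSeq symbol or synonym. The script was tested on simulated data. Figures were drawn with matplotlib 3.10.9 under Python 3.11.15. All members are named; from related lists, genes called with a log2 change of at least 1 were eligible, at most the 3 largest per direction and comparison. Some genes of these lists are not reported here by name.

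The members, the related lists and the markers were chosen with earlier results of these data known, and no test over a list was made. Where a probe was not well above background, the fold was taken against the lowest signal well above background on the array, which is not a strict bound. The number of arrays, 2 a group, limits the precision. Replicate numbers did not pair the samples (correlations of deviations between -0.028 and 0.045). Alternatives were background correction, normalization, filter, the authors' table, prior variance, replicate block, slide, the methods' tests, the probe rule and leaving out each array.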

Additional observations from a re-analysis of the deposited data

How the results depend on the processing

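No fold change of the 31 genes reversed its call under any of these alternatives, but none of them took a dimmer probe alone. As given above, the INSIG2 probes were called in opposite directions in R50 against WT+NU6102. The number lower in WT+NU6102 stayed between 20 and 26, except for 15 with the methods' t-test after Benjamini-Hochberg adjustment, and the number higher in CDK2-/- between 12 and 18, with the exception of the same test. With the methods' t-test after adjustment, 5 genes were higher and 1 lower in CDK2-/-, 0 higher and 0 lower in R50 against WT, 0 higher and 3 lower in R50 against CDK2-/-, and 1 lower in R50 against WT+NU6102; the methods' one-way ANOVA called 11. With its unadjusted p, 6 were lower in CDK2-/- and 11 higher in R50 against WT. With no filter on dim probes, 2 were higher and 0 lower in R50 against WT, 8 lower in R50 against CDK2-/-, and 4 passed the F-test. Normexp gave 5 lower in CDK2-/-, quantile normalization 8 higher by at least 1 in R50 against WT+NU6102, a trended prior 11 higher in R50 against WT, and the mean of a gene's probes 1 higher in WT+NU6102. Leaving out each array in turn gave 2 to 4 genes lower by at least 1 in WT+NU6102 (4 without WT replicate 2), 3 to 6 higher and 0 to 2 lower in R50 against WT, and 2 to 8 by the F-test. These fits have fewer arrays, and for the other settings the cause was not tested. The share of all genes called was not computed for any alternative. Changes in these counts therefore cannot be read as particular to the 31 genes.

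The replicate number as a block moved the F-test's count from 21 to 11 and left 22 genes lower in WT+NU6102, 15 higher in CDK2-/- and 6 higher in R50 against WT; the samples shared only a number. Slide could not be fitted as a block, since each group lay on 1 slide. With 2 arrays a group, small differences can go uncalled.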

Other observations

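Genes of fatty acid oxidation, the route that breaks down what the synthesis genes build, were also higher in CDK2-/-: 14 of 26 tested were called higher than in WT and 2 lower, beside 19.6% and 16.5% of all genes tested, with a median log2 fold change of 0.20. PDK4, a kinase that restrains entry of pyruvate into the citrate cycle, read -3.58 and -3.67 in WT and -1.99 and -1.93 in CDK2-/- (1.66, limma, adjusted p = 5.53e-05). On both WT+NU6102 arrays PDK4 was not well above background. Against the lowest signal well above background on those arrays, WT was 2.52-fold and R50 3.25-fold higher. That signal is not a strict ceiling, since a probe that reads above it can still fail to stand well above background. With acute drug 9 of the 26 were lower (34.6%) and 6 higher (23.1%), beside 24.1% and 29.1% of all genes. CPT1C, a carnitine palmitoyltransferase family member, fell by 1.49 with the drug and by 1.03 in R50. It was also lower in CDK2-/- (-0.77, limma, adjusted p = 0.000571). ACOX2, a peroxisomal oxidase, fell by 1.05 with the drug. In R50 against WT 6 were higher (23.1%) and 2 lower (7.69%), beside 12.2% and 15.6% of all genes.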
